A study of Mus musculus with 2 samples.

Results

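Gasdermins are proteins that open pores in cell membranes. In most of them a protease cuts the linker behind the amino-terminal domain, and the freed domain inserts into the membrane. The cell then swells and bursts by pyroptosis, or releases cytokines of the interleukin 1 family through the pores. The A genes are known from the skin and other stratified epithelia and the C genes from the skin and the intestinal epithelium. The mouse carries several copies of both. Gsdmd and Gsdme are used by many cell types.

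The 9 gasdermin genes of the mouse were found by their symbols among the 40879 gene symbols of each library: Gsdma, Gsdma2, Gsdma3, Gsdmc, Gsdmc2, Gsdmc3, Gsdmc4, Gsdmd and Gsdme. The study asked how partial lack of ERAP1, an aminopeptidase of the endoplasmic reticulum that trims peptides for MHC class I molecules, bears on colitis in mice and its treatment with sulfasalazine. Intestine RNA was sequenced from untreated control mice on the C57BL/6 background, 8 weeks old, which the methods call germ-free and house as specific pathogen-free. The groups were ERAP1 WT and ERAP1+/-. The mutant mice descend from 1 embryonic stem cell clone with the ERAP1 tm1a allele, which was crossed with a Cre recombinase strain that removes exons 6 and 7. Each genotype had 1 library, made from equal amounts of RNA pooled from 3 mice and sequenced from the 3′ ends of transcripts. With 1 library per genotype no difference had a replicate check and no p-value could be given. The 95% intervals are exact and cover counting error only, not differences between mice.

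The totals were 8114826 reads for ERAP1 WT and 8907515 for ERAP1+/-. Erap1 itself had 229 reads in WT and 2 in the other library, where its level was 0.730% of that in WT (95% interval 0.0878% to 2.67%). This goes against a label with 1 intact allele, so that library is called by its label throughout. The pools also stood apart in sex-linked transcripts: the Y-linked genes Ddx3y, Eif2s3y, Kdm5d and Uty had 72 to 319 reads in WT and 1 to 29 in the library labelled ERAP1+/-, and Xist had 1635 and 6451. The sources used here do not give the sex of the mice, and sex and genotype cannot be told apart. All 12 intestinal epithelium markers of the list used here, such as Epcam (9812 and 9413 reads), reached 15 CPM in 1 or both libraries. The WT library also held markers of skin, whose values stand beside the genes they move with below. Values are CPM, the reads of a gene relative to the library size, after TMM scaling. With 3′-end sequencing a transcript gives reads near its end whatever its length, so levels of different genes were compared without dividing by length. In bulk tissue, fewer cells of a type and less RNA per cell cannot be told apart.

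The gasdermin genes lie at 4 places in the mouse genome (GENCODE M21, build GRCm38). The A copies form a cluster of 51349 bp at chr11:98626360-98677708 on the plus strand, in the order Gsdma3, Gsdma2 and Gsdma. The C copies form a cluster of 136330 bp at chr15:63775968-63912297 on the minus strand, with Gsdmc4 at the high end, followed by Gsdmc3, Gsdmc2 and Gsdmc. Gsdmd lies on the same chromosome at chr15:75862327-75867408 on the plus strand, and Gsdme at chr6:50188888-50263862 on the minus strand. The coding sequences compared here run from 443 codons for Gsdma2 to 512 for Gsdme.

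Gsdmc2, Gsdmc3 and Gsdmc4 carried 93.7% of all gasdermin reads in WT and 97.5% in the library labelled ERAP1+/-, and they are close copies. The last 60 coding bases, up to and including the stop codon, are shown for these genes because they show how few letters separate the copies that dominate the colon. Each is written 5′ to 3′ on the minus strand of GRCm38, at chr15:63891804-63891863 for Gsdmc4, chr15:63824878-63824937 for Gsdmc2 and chr15:63858271-63858330 for Gsdmc3. Capitals mark the bases that differ from Gsdmc4, which are 3 in either copy.
Gsdmc4: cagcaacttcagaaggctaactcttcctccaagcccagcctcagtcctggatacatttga
Gsdmc2: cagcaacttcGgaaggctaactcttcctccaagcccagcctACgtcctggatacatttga
Gsdmc3: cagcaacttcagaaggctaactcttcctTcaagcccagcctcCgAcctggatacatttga

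Over the whole coding sequence, Gsdmc2 and Gsdmc3 were 97.1% identical, and Gsdmc4 was 93.0% identical to either of them. Gsdmc stood further off, at 82.8% to 84.0% identity with the other C copies. Among the A copies, Gsdma was 89.8% identical to Gsdma2 and 87.3% to Gsdma3. The same stretch of Gsdma and Gsdma2 is shown because Gsdma had nearly all A reads and Gsdma2 had none, although their coding ends differ at only 5 positions, in capitals. Both lie on the plus strand, at chr11:98676357-98676416 and chr11:98657696-98657755.
Gsdma: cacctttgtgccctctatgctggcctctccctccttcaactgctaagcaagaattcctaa
Gsdma2: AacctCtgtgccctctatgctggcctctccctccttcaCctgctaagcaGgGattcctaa

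Such copies can share reads. In the last 500 bases of each transcript, where 3′-end reads fall, every stretch of 75 bases, the length of a read, was looked up in the transcripts of all other genes. No window of Gsdmc4 was found in another gene. Of the 426 windows, 25.1% of those of Gsdmc3, 23.7% of those of Gsdmc2 and 17.1% of those of Gsdmc also occurred elsewhere, and only among these 3 copies. For Gsdma3 the share was 0.939%, with Gsdma as the other gene, and for Gsdma, Gsdma2, Gsdmd and Gsdme it was 0. The split of reads between Gsdmc, Gsdmc2 and Gsdmc3 is therefore less certain than the level of Gsdmc4, and how shared reads were assigned is not given in the sources used here.

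**Figure D1:**
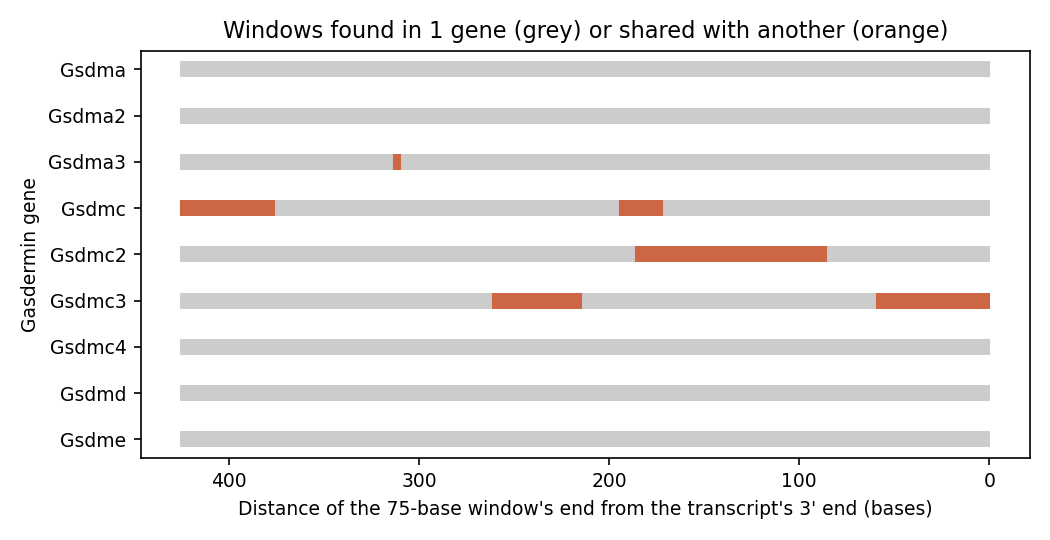
Windows of 75 bases in the last 500 bases of each gasdermin transcript, placed by the distance in bases of the window's end from the 3′ end of the transcript, one row per gene. Grey windows occur in that gene alone and orange windows also in another gene; Gsdmc, Gsdmc2 and Gsdmc3 have 73, 101 and 107 orange windows of 426, and Gsdmc4 has none.

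Gsdmc4 was by far the most abundant gasdermin of the colon. It had 8001 reads in WT and 13471 in the library labelled ERAP1+/-, or 1030 and 1448 CPM, and ranked 88th and 48th among all symbols. Its level was 1.41 times that of WT (95% interval 1.37 to 1.45). That is a large difference in reads and a modest one in fold, below the 2-fold used here to call a gene. The ratio of Gsdmc4 depended on the scaling, at 1.53 with the total count alone and 1.67 when scaled by the epithelial markers.

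Gsdmc2 had 2294 and 2632 reads, which is 295 CPM in WT and 283 CPM in the library labelled ERAP1+/-. The ratio of 0.958 had an interval that holds 1 (0.906 to 1.01), and its side of 1 depended on the scaling, since the log2 difference of -0.06 became 0.06 with the total count alone and 0.19 when scaled by the epithelial markers. Gsdmc3 had 1947 and 2676 reads, or 251 and 288 CPM, a ratio of 1.15 (1.08 to 1.22). Its ratio was 1.25 with the total count alone and 1.37 when scaled by the epithelial markers. Together the 4 C copies had 12371 reads in WT and 18798 in the library labelled ERAP1+/-, a ratio of 1.27 (1.24 to 1.30). This sum does not depend on how reads were split among the copies. It can depend on whether shared reads were counted at all, which is not given in the sources used here.

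Gsdmc, the most distant C copy, went the other way. It had 129 reads in WT and 19 in the library labelled ERAP1+/-, or 16.6 and 2.04 CPM. Its level was 8.13-fold lower than in WT (ratio 0.123, 0.0717 to 0.200), a log2 difference of -2.53.

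**Figure D2:**
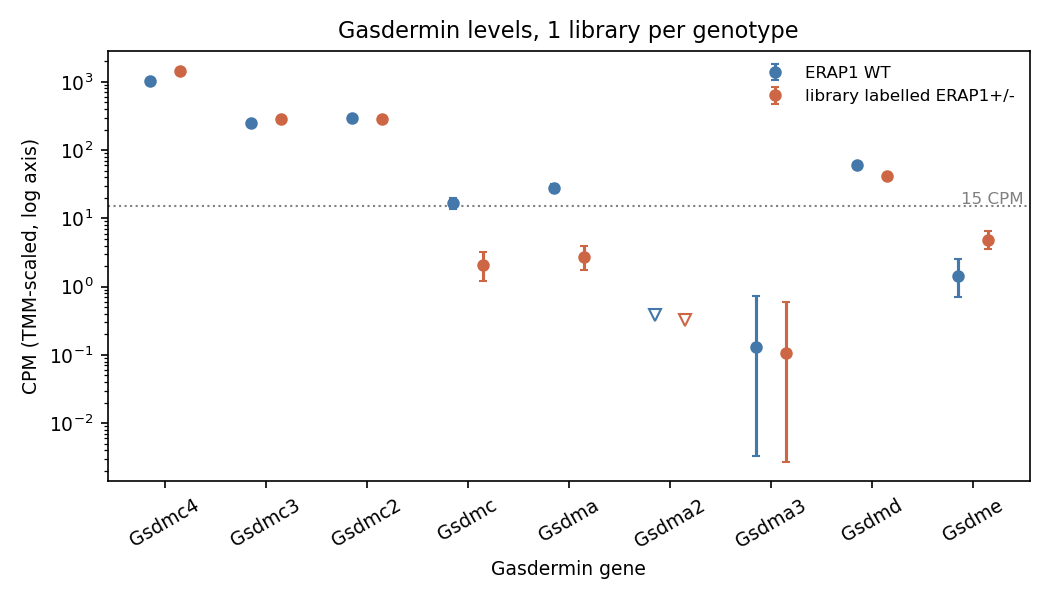
CPM of each gasdermin on a log axis in ERAP1 WT (blue) and the library labelled ERAP1+/- (orange), 1 library each. Bars are exact 95% intervals for counting error, open triangles mark the limit that a count of 0 allows, and the dotted line is the level of 15 CPM; Gsdmc4 lies at 1030 and 1448 CPM, and Gsdma and Gsdmc lie above the line in WT and below it in the other library.

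The make-up of the C reads can be compared without any scaling. Gsdmc4 took 64.7% of them in WT (exact Clopper-Pearson 95% interval 63.8% to 65.5%) and 71.7% in the library labelled ERAP1+/- (71.0% to 72.3%). Gsdmc2 took 18.5% and 14.0%, and Gsdmc3 15.7% and 14.2%. Gsdmc took 1.04% of the family's reads in WT (0.871% to 1.24%) and 0.101% in the other library (0.0609% to 0.158%). These intervals cover counting error only, and with this many reads small shifts in share exceed it.

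The ratio of Gsdmc4 to Gsdmc2 was 1.47 times as high (1.38 to 1.56) in the library labelled ERAP1+/- as in WT, and that of Gsdmc4 to Gsdmc3 1.22 times (1.15 to 1.31). Beyond counting error, the copies of the cluster thus did not keep 1 common ratio in these libraries. The spread between mice was not measured. The split among Gsdmc, Gsdmc2 and Gsdmc3 also depends on how shared reads were assigned. The ratio of Gsdmc4 to Gsdmc was 11.4 times as high (7.02 to 19.6).

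**Figure D3:**
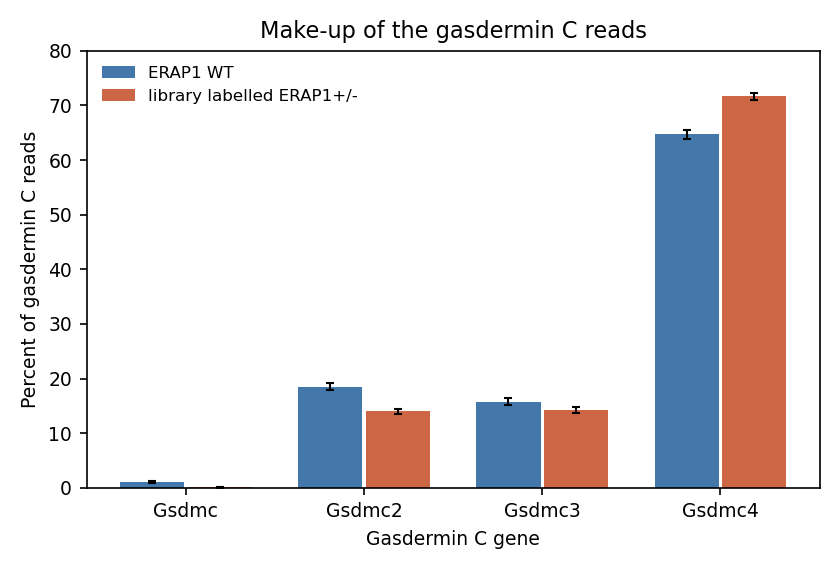
Percent of all gasdermin C reads that fell on each copy in ERAP1 WT (blue) and the library labelled ERAP1+/- (orange), with exact 95% intervals. Gsdmc4 holds 64.7% and 71.7%, and Gsdmc 1.04% and 0.101%.

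The epithelial markers beside Gsdmc4 were mixed. Of the 12 intestinal epithelium markers none was called, 9 had a negative and 3 a positive log2 difference, and their summed level was 10819 CPM in WT and 9087 CPM in the library labelled ERAP1+/-. The transcription factor genes Cdx1 (1080 and 1772 reads, ratio 1.37, 1.27 to 1.48) and Cdx2 (86 and 172, ratio 1.67, 1.28 to 2.19), which set intestinal identity, were higher by about as much as Gsdmc4. Relative to Epcam, a cell surface marker of the epithelium, Gsdmc4 was 1.76 times as high (1.69 to 1.83) in the library labelled ERAP1+/-, and relative to Cdx1 1.03 times (0.946 to 1.11). Of the 10 markers of surface colonocytes, the absorptive cells at the top of the crypts, 8 passed the level and 3 of these were more than 2-fold lower: Car4, a carbonic anhydrase (15163 and 8391 reads), Krt20, a keratin of mature enterocytes (5156 and 2674), and Ceacam20 (2859 and 1621). In the same list Guca2a, the gene of guanylin, was higher (3280 and 5221 reads, ratio 1.33, 1.27 to 1.39), and Slc9a3, a sodium and proton exchanger, had 7 and 60 reads, below the level. The value of Gsdmc4 relative to these cells therefore depended on the marker taken: it was 2.48 times as high (2.39 to 2.58) relative to Car1, another carbonic anhydrase (13814 and 9366 reads), and 1.06 times (1.00 to 1.11) relative to Guca2a.

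Type 2 immune signals are known to induce C copies in the intestinal epithelium. The cytokines Il4, Il13 and Il25 had no read in either library, which allows up to 3 reads each. Their receptor chains Il4ra (182 and 244 reads) and Il13ra1 (312 and 456, ratio 1.22, 1.05 to 1.41) and the transcription factor Stat6 (225 and 253, ratio 0.939, 0.782 to 1.13) passed the level, and none of the list of 7 genes was past 2-fold. Il17rb, the receptor of Il25, had 4 reads in either library. Of 8 markers of tuft cells, the epithelial source of Il25, 5 had 10 reads or more and all 5 had a positive difference (median log2 0.59, summed reads 149 and 264). Only 1 of them passed the level, Dclk1, with 98 and 155 reads (ratio 1.32, 1.02 to 1.72), and it was not called. Sh2d6 (3 and 14 reads, ratio 3.90, 1.09 to 21.2) and Trpm5 (8 and 21, ratio 2.19, 0.933 to 5.72) had ratios above 2 on few reads. Among the markers with under 10 reads, Pou2f3 went the other way with 4 and 0, and Gfi1b had 0 and 3.

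Gsdma, known from skin, was the A copy that was detected. It had 217 reads in WT and 25 in the library labelled ERAP1+/-, or 27.9 and 2.69 CPM. Its level was 10.4-fold lower (6.85 to 16.4), a log2 difference of -2.97. Gsdma2 had no read in either library, and Gsdma3 had 1 read in each. Gsdma held 99.5% of the A reads in WT (217 of 218) and 96.2% in the other library (25 of 26).

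Gsdma and Gsdmc were the only gasdermins called past 2-fold. A gene was called where its log2(CPM + 1) differed by more than 1 and reached 4, which is 15 CPM, in 1 or both libraries. Of the 9 gasdermins, 6 passed that level, 2 were called lower and 0 higher in the library labelled ERAP1+/-. Of all 8013 symbols that passed the level, 5.34% were called in either direction, 3.96% lower and 1.39% higher. The direction over all symbols depended on the scaling, with 317 lower and 111 higher here, 248 and 166 with the total count alone, and 203 and 249 when scaled by the epithelial markers, while Gsdma and Gsdmc were lower under each. Both called gasdermins passed the level only through the WT library, so a high value there was needed for the call. The median log2 difference of the 6 was -0.29, beside -0.03 over all symbols past the level. Gsdma2, Gsdma3 and Gsdme did not pass the level.

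Both genes moved with skin markers. The marker lists were chosen with earlier results of these data known. The study itself reports several of their genes, such as Flg, Lor and Ivl, as lower in the same comparison. This shared direction was therefore partly known in advance. The 15 markers of the suprabasal epidermis, the outer skin layers, summed to 3549 CPM in WT and 50.5 CPM in the library labelled ERAP1+/-. All 13 that passed the level were called lower. Krt10, a keratin of these layers, had 3922 and 72 reads, Flg, the gene of filaggrin, 7952 and 4, and Ivl, Dsg1a, Dsc1 and Flg2 had no read in the latter library, while Krt2 had none in either. Of the 8 markers of basal stratified epithelium, 3 of the 5 past the level were called lower, among them Krt5 (418 and 73 reads) and Krt14 (623 and 97), and Trp63, the defining transcription factor, had 23 and 0. Hair follicle markers summed to 1637 and 40 reads, with 8 of 10 at 0 in the latter library, and sebaceous gland markers to 1500 and 35. Skeletal muscle markers summed to 10997 and 203 reads. The part of skin in the values of Gsdma and Gsdmc was not tested.

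On the log2(CPM + 1) scale, the differences of Gsdma and Gsdmc were smaller than those of most suprabasal markers. They lay within the range of the other skin lists on that scale, which understates differences of markers with few reads. By ratio, each hair follicle and sebaceous gland marker with reads in both libraries was lower by more than Gsdma and Gsdmc. The smallest of these differences was 12.6-fold for Far2 (8.43 to 19.7), beside 10.4-fold for Gsdma and 8.13-fold for Gsdmc. The median log2 difference of markers with 10 reads or more was -5.70 for the suprabasal, -3.32 for the hair follicle, -3.26 for the sebaceous gland and -1.97 for the basal list. Basal markers differed widely, from 19.7-fold lower for Krt15 (296 and 18 reads) to 1.63-fold for the integrin Itgb4 (951 and 699) and 1.19-fold for Dst (1385 and 1394). Krt5 was 6.86-fold lower (5.34 to 8.92), and the ratio of Gsdma to Krt5 was 0.660 times that in WT with an interval that holds 1 (0.390 to 1.09). For Gsdmc to Krt5 the value was 0.844 (0.463 to 1.48). Other basal markers gave other values, on either side of these. Relative to Krt15, Gsdma was 1.89 times (0.964 to 3.78) and Gsdmc 2.42 times (1.16 to 5.06) as high as in WT. Against Itgb4 the values were 0.157 (0.0982 to 0.241) for Gsdma and 0.201 (0.116 to 0.330) for Gsdmc. Relative to Krt10, Gsdma was 6.27 times (3.73 to 10.2) and Gsdmc 8.01 times (4.43 to 13.9) as high in the library labelled ERAP1+/- as in WT. Of the 14 suprabasal markers with 10 reads or more, 12 had a lower log2 difference than Gsdma and 12 a lower one than Gsdmc. Those counts were 1 and 3 of 8 basal, 4 and 4 of 8 hair follicle and 4 and 4 of 7 sebaceous gland markers. Markers with almost no read in the library labelled ERAP1+/-, such as Krt28 (17 and 0) and Mc5r (21 and 1), are placed mostly by their WT reads. The counts therefore do not rank such markers by fold. The ratio of Gsdma to Gsdmc itself was 0.783 times that in WT (0.396 to 1.57), so the pair could not be told apart in the size of their difference.

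**Figure D4:**
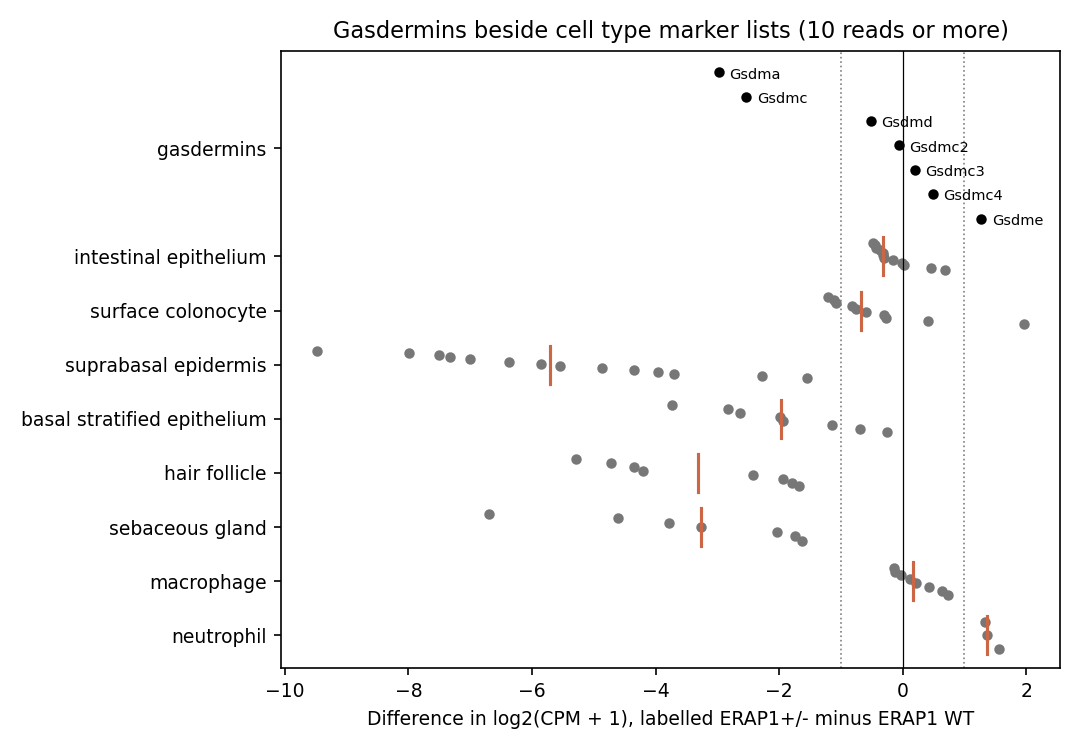
Difference in log2(CPM + 1), the library labelled ERAP1+/- minus ERAP1 WT, of the 7 gasdermins with 10 reads or more (black, named) and of cell type marker genes (grey, orange bar at each list's median); dotted lines mark 2-fold. On this scale Gsdma at -2.97 and Gsdmc at -2.53 lie among the basal, hair follicle and sebaceous gland markers. Gsdmc2, Gsdmc3, Gsdmc4 and Gsdmd lie near the intestinal epithelium markers. The scale understates the differences of markers with few reads.

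The genes whose difference was most like that of Gsdma were sought among the 2902 symbols within 1.5 times its mean CPM, over 2 libraries only. The nearest were Far2 (274 and 26 reads), an enzyme that makes fatty alcohols and one of the sebaceous gland markers, Tmem45a (235 and 20) and the Y-linked helicase gene Ddx3y (319 and 29), at log2 distances of 0.28 to 0.38. For Gsdmc4 the pool held 82 symbols, and the nearest included the ribosomal protein genes Rps13 (5503 and 9315 reads) and Rpl31 (6900 and 11324), at distances of 0.0075 and 0.037. With 1 value per genotype this likeness is a match of 1 difference.

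Gsdmd, the gasdermin cut by inflammatory caspases, was present in both libraries at a moderate level. It had 462 reads in WT and 383 in the library labelled ERAP1+/-, or 59.5 and 41.2 CPM. It was 1.44-fold lower (1.26 to 1.66), short of 2-fold, at a log2 difference of -0.52. When scaled by the epithelial markers it was 1.21-fold lower, outside that interval. The ratio of Gsdmc4 to Gsdmd was 2.03 times as high as in WT (1.76 to 2.34).

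Gsdme, a gasdermin of many cell types, was the one gene of the family with a ratio above 2, on few reads. It had 11 reads in WT and 45 in the library labelled ERAP1+/-, or 1.42 and 4.84 CPM, a ratio of 3.42 (1.74 to 7.33). At these counts it did not pass the level and was not called. Gsdme is also the only gasdermin that overlaps another gene: 10052 of its bases, reached by 1 of its 5 coding transcripts, lie opposite Pals2 (named Mpp6 in GENCODE M21). Pals2 had 250 and 454 reads, a ratio of 1.52 (1.30 to 1.78). Whether the counting used strand is not given in the sources used here, so reads of the 2 genes cannot be told apart in the overlap.

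Some neutrophil markers also had more reads in the library labelled ERAP1+/-: S100a8 had 49 and 165 and S100a9 52 and 171, both called higher. The 8 markers summed to 105 and 365 reads, most of them from S100a8 and S100a9, with 4 markers at 0 in WT. The others had few reads, such as Retnlg with 0 and 18 and Csf3r with 1 and 5, and Cxcr2 went the other way with 3 and 1. The 8 macrophage markers summed to 1686 and 2480 reads with 0 called, and the 8 of T and NK cells to 36 and 47. The part of these cells in the reads of Gsdme was not tested. Fibroblast markers were alike (25310 and 25975 reads, 0 of 7 called), smooth muscle markers were lower (74000 and 46011, 2 of 8 called), and stomach markers were near 0 (8 and 7 reads).

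In WT the order of levels was Gsdmc4, Gsdmc2, Gsdmc3, Gsdmd, Gsdma, Gsdmc and Gsdme, and each neighbour in that order differed beyond counting error. The narrowest step was between Gsdmc2 and Gsdmc3, at 1.18-fold (1.11 to 1.25). In the library labelled ERAP1+/- the order was Gsdmc4, Gsdmc3, Gsdmc2, Gsdmd, Gsdme, Gsdma and Gsdmc. There Gsdmc3 and Gsdmc2 were not apart (1.02-fold, 0.963 to 1.07), and neither were Gsdma and Gsdmc (1.32-fold, 0.696 to 2.53). Gsdme, below Gsdma and Gsdmc in WT, lay above them there, at 1.80 times Gsdma (1.08 to 3.06). Gsdma3 and Gsdma2 came last in both libraries and could not be ordered. Of the pseudogenes of the C cluster, Gsdmcl-ps had 22 and 16 reads and Gsdmcl1 and Gsdmcl2 had none.

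In 7 lists, 51 genes were looked up: machinery that acts before and after gasdermin pores, type 2 immune signalling and the gasdermin relative Pjvk. Of the 51 genes, 28 passed the level and 14 had under 10 reads over both libraries. Past the level 0 were called higher and 1 lower, near the 5.34% called over all symbols, and the median log2 difference was -0.04. Another 4 genes with 10 reads or more were beyond 2-fold on the log2(CPM + 1) scale but below the level. They were Nlrp10 (40 and 18 reads), and Il1b, Il36a and Il36rn, which are given below. By ratio alone, Il36g (12 and 3 reads), Mefv (6 and 19) and Il18bp (6 and 19) were also beyond 2-fold, on few reads. The gene called was Nlrp9b, an inflammasome sensor of the intestinal epithelium, with 282 and 139 reads (2.43-fold lower, ratio 0.412, 0.334 to 0.506).

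All 5 caspases passed the level and none was called. Casp1, which cuts Gsdmd, had 820 and 938 reads (ratio 0.956, 0.869 to 1.05), and Casp8 503 and 533. Casp4 was lower by about as much as Gsdmd, with 271 and 230 reads (ratio 0.709, 0.592 to 0.848, beside 0.692 for Gsdmd). Of the other proteases known to cut gasdermins, Elane and Ctsg of neutrophils had no read, and the granzymes Gzma and Gzmb had at most 3 reads in a library.

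Of the 18 inflammasome genes, 12 passed the level. Pycard, the adaptor that joins sensors to Casp1, had 1110 and 1543 reads (ratio 1.16, 1.07 to 1.26), and Naip1, a sensor of bacterial secretion systems, 1292 and 1070 (ratio 0.692, 0.637 to 0.751). Nlrp6, a sensor of the gut epithelium, had 719 and 840 reads (ratio 0.976), and Nlrp3 had 0 and 2. Aim2 had 775 and 843 reads and Nlrc4 303 and 281. The colon pools thus held reads of Naip genes, Nlrp6, Aim2 and Nlrc4, among others, and almost none of Nlrp3.

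Of the interleukin 1 family and its inhibitors, Il18, a cytokine released through gasdermin pores, had 1893 and 2828 reads, a ratio of 1.25 (1.18 to 1.32) next to the 1.27 of the summed C copies. Il1rn, the receptor antagonist, had 639 and 619 reads (ratio 0.809, 0.723 to 0.905). Il1b had only 9 and 37. The interleukin 36 genes of skin went with Gsdma in direction: Il36rn had 46 reads in WT and 0 in the library labelled ERAP1+/- (at least 18.4-fold lower, with 3 reads as the limit per library), and Il36a 29 and 0 (at least 11.6-fold lower). None of these 3 passed the level.

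Of the genes of membrane rupture and repair, Ninj1, which breaks the membrane at the end of pyroptosis, had 164 and 210 reads (ratio 1.07, 0.868 to 1.32). Chmp4b and Chmp3 of the ESCRT machinery, which removes pores, had 2956 and 3177, and 2912 and 3026 reads, and 0 of the 6 genes was called. Pjvk, the hearing gene related to gasdermins, had 0 and 1 read.

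**Figure D5:**
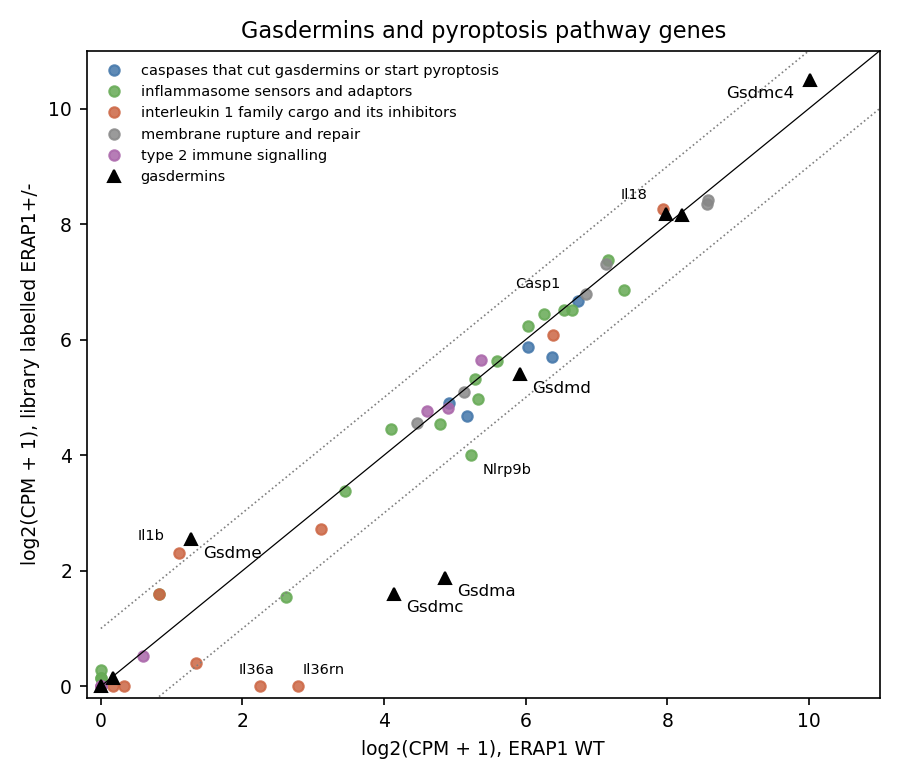
log2(CPM + 1) in ERAP1 WT (x axis) and the library labelled ERAP1+/- (y axis) of the gasdermins (black triangles) and of pathway genes by list (coloured points), with the line of equal levels and dotted lines at 2-fold. Of the points past the level of 4, Gsdma, Gsdmc and Nlrp9b lie outside the dotted lines.

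Of 24 neighbours, the 3 nearest protein-coding genes on either side of each gasdermin place, 23 had a row in the files. Only 9 passed the level, with log2 differences from -0.80 to 0.34. Of these 0 were called, beside 5.34% of all symbols past the level, so with so few genes 0 is near that share. Whether differences extend over a region was not tested. Next to the A cluster, Psmd3, a proteasome subunit 4846 bp away, had 726 and 741 reads (ratio 0.853), as against 217 and 25 for Gsdma, and Gm12355 on the other side had no row. Next to the C cluster, Cyrib (Fam49b in GENCODE M21) lay 16800 bp away with 536 and 732 reads (ratio 1.14), and Myc, far on the other side, had 12 and 35 (ratio 2.44, 1.23 to 5.15), below the level. Beside Gsdmd, Zc3h3 had 73 and 65 reads and Mroh6 21 and 0, a log2 difference of -1.89 below the level, and beside Gsdme, Npy had 21 and 13 and Osbpl3 201 and 159.

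Promoters from RefSeq (GRCm38.p6, 250 bases before to 50 after the start) were matched for 3 of the 9 genes: Gsdma3, Gsdmc3 and Gsdme. The Gsdme promoter held 24 CpG dinucleotides and those of Gsdma3 and Gsdmc3 held 2 each, against a median of 7 over 32851 promoters. The 60 bases before the start of Gsdmc3 are shown as the stretch upstream of an abundant colon copy, at chr15:63878559-63878618 on the minus strand, with capitals for TATATAAG, letters chosen after the sequence was seen.
Gsdmc3: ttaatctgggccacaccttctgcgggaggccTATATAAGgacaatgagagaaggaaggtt

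TATATAAG begins 29 bases before the start and occurs in 1.01% of all promoters on either strand. The STAT6 motif (TTC and GAA with 4 bases between them, in 6.95% of promoters), the AP-1 motif (TGANTCA, 7.81%) and the CDX motif (TTTATG, 11.9%) were not found on either strand in the Gsdmc3 and Gsdme windows. In the Gsdma3 window TTTATG occurred once on the opposite strand. No overlap between motifs was counted.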

How the data were processed

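Intestine RNA of control mice, pooled from 3 mice per genotype, was sequenced as 1 QuantSeq 3′ library each (single-end, 75 bases). For each gene symbol the authors deposited raw counts of reads, which are whole numbers. The methods name STAR with HTSeq-count in one place and Bowtie2 with RSEM on GENCODE transcripts of GRCm38 in another, and the submitters' processing notes list Bowtie2, RSEM and GRCm38. Which made the counts, and the strand setting, are not given in the sources used here. The members, marker lists and pathway lists were chosen with earlier results of these data known.

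Library sizes were scaled by TMM in edgeR 4.0.16 (R 4.3.3). The factor was 0.958 for ERAP1 WT and 1.04 for the library labelled ERAP1+/-. CPM and log2(CPM + 1) rest on these sizes. The log2(CPM + 1) scale understates differences of genes with few reads. A gene was called where this value differed by more than 2-fold and was at least 4 in 1 or both libraries. With 1 library per genotype edgeR has no residual degrees of freedom and no test was run. The 95% interval of a ratio is the exact conditional binomial one from scipy 1.17.1. The limit set for 0 reads was 3 reads, equal to 0.386 CPM in WT and to 0.322 CPM in the other library. PCR reads without molecular identifiers are not independent molecules. The rule and intervals were tested on simulated data.

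Named genes were the 9 gasdermins, called members (at most 4) and the 2 most abundant genes of lists, nearest neighbours, the 3 most alike genes and Erap1. Some list members outside this rule, and the Y-linked genes and Xist, were named after their values were seen. Alternatives were DESeq2 1.42.0 size factors, the total count, scaling by epithelial markers, TMM without skin and muscle lists, thinning, another pseudocount, other filters, a 4-fold threshold and summed copies. Positions are from GENCODE M21. Some genes that the naming rule gives are not reported here.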

Additional observations from a re-analysis of the deposited data

How the results depend on the processing

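The count of gasdermins past 2-fold was 2 and stayed 2 with DESeq2 size factors, the total count, scaling by the summed intestinal epithelium markers, TMM without the skin and muscle lists, thinning, a pseudocount of 0.1 and a 4-fold threshold. It was 3, with Gsdme as the gene added, without a filter on low values or with at least 10 reads over both libraries. It was 1 with the A copies and the C copies each summed to 1 feature, because Gsdmc then disappears in the sum of its copies. The ratio of the summed C copies was 1.27, and 1.38 with the total count alone and 1.51 with scaling by the epithelium markers, settings that move the median log2 difference of all symbols past the level by 0.12 and 0.25. Of 48 recomputed log2 differences of members, 7 moved beyond the counting interval and 2, both of Gsdmc2, changed sign (0.06 and 0.19 under the same settings). The ratio of the summed A copies ranged within its counting interval, and so did the shares of the C copies under thinning. No paired analysis was possible because the groups hold 1 library apiece. Depth limits Gsdme, Gsdma3 and Gsdma2, whose counts were 45 reads or fewer in each library.

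Over all symbols 428 were called, and 414 to 452 under the other scalings, thinning, the pseudocount and the summed copies. Without a filter on low values 1434 of 40879 symbols passed 2-fold, with at least 10 reads 1390 of 16142, and 160 passed 4-fold at the level of 4.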
